A study of Mus musculus with 4 samples.

Results

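Insulated boundaries are stretches of a chromosome across which few contacts pass, so that the sequence before and the sequence after them meet less often than neighbouring sequences usually do. Here they were 40-kb bins of the mouse autosomes, chosen by the contact values themselves. For every bin, the pairs joining the 10 bins before it to the 10 bins after it were counted in the 4 libraries pooled, and the insulation of the bin was the log2 of that count over the mean of its chromosome, so that a low value means few crossing pairs. A bin was a boundary when its insulation was the lowest within 10 bins on either side and below -0.5. This gave 1802 boundaries among 59546 bins with an insulation value, or 3.03% of them.

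In mammalian chromosomes, boundaries separate neighbouring domains of preferential self-contact, called topologically associating domains. Cohesin is thought to extrude chromatin loops until it meets the protein CTCF, which stops it when the CTCF motif points towards the loop, and boundaries are therefore known for CTCF motifs in divergent orientation. Active promoters, housekeeping genes and tRNA genes are also frequent at them. H3K4me3, the trimethylation of lysine 4 of histone H3, marks active promoters.

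The libraries were H3K4me3 HiChIP-seq, an in situ Hi-C whose ligated fragments are enriched with an H3K4me3 antibody, from MLg mouse lung fibroblasts, which are a single cell line. There was 1 library for each of 4 conditions: Control, labelled WT with no antagomiR named; TGFB1, given 5 ng/ml human recombinant TGFB1 for 4 h; TGFB1+miR-9-LOF, given TGFB1 and an antagomiR against miR-9-5p; and miR-9-LOF, given that antagomiR alone. The protocol shared by all 4 sets antagomiRs at 60 nM, lists a negative control antagomiR, which by the study's own description went to the cells not given the one against miR-9, and has cells harvested 24 h after transfection. With 1 library per condition there was no replicate and no test between conditions, and every interval below covers counting error only.

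The libraries held 10864558 to 15568047 valid pairs, of which 86.6% to 90.8% were used, with each end mapped at a quality of 30 or more. H3K4me3 regions, runs of 1-kb bins with at least 4-fold more pair ends than their surroundings, numbered 8404, and 38.5% of 20807 autosomal coding transcription start sites (TSS) lay within 2 kb of one. These start sites are called marked below. Among the marker genes, 7 of 12 for fibroblasts were marked (Col1a1, Pdgfra, Pdgfrb, Vim, Twist1, Prrx1 and S100a4), against 1 of 10 for lung epithelium (Foxj1), 0 of 8 for endothelium and 0 of 7 for blood. Pair ends in H3K4me3 regions made up 10.3% of the autosomal ends of Control. The share was 7.44% with TGFB1 alone, 4.35% with both treatments (TGFB1+miR-9-LOF) and 5.10% with the antagomiR alone (miR-9-LOF), so the libraries differed in enrichment as well as in condition. Wherever 4 values follow each other, they stand in this library order.

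The boundaries lay on all 19 autosomes, between 44 on chromosome 19 and 151 on chromosome 1, with 6.26 to 8.38 per 10 Mb. Their median spacing was 1.04 Mb, and 90% of the spacings fell between 0.52 and 3.32 Mb. Insulation at boundaries had a median of -1.23, with 5th and 95th percentiles of -3.35 and -0.56, and a median of 395.5 crossing pairs stood behind each value, against 830 for all bins. The boundaries just inside the threshold had -0.5009, -0.5009 and -0.5006, and the local minima just outside it had -0.4987, -0.4986 and -0.4980, so that the threshold cut through a continuous range. Of 2537 local minima in all, 71.03% passed it.

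Some boundaries were gaps in coverage. In 1479 of the 1802 none of the 21 bins of the window fell below 25% of the chromosome's median number of pair ends, and these are called clear-window boundaries. The other 323 had a median insulation of -2.14 and a median of 215 crossing pairs, and 8 boundaries held unsequenced bases. Insulation at clear-window boundaries had a median of -1.13 and never fell below -3.45, while the lowest value of all boundaries was -10.1, resting on 1 crossing pair.

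Around clear-window boundaries the map of pairs showed 2 squares with a depleted corner. Pairs crossing the boundary within 400 kb stood at 0.472 of the chromosome mean for their distance, while pairs staying within the 400 kb before or the 400 kb after stood at 0.959 and 0.943. The rule itself chose bins for this depletion. The bin in the middle showed the opposite at longer range: pairs from the boundary bin to bins 440 to 800 kb away were at 1.47 times the chromosome mean before it and 1.48 times after it. The same pairs from all clear-window bins stood at 1.09 times. These pairs do not enter the insulation of the boundary bin, but they do enter that of its neighbours. The band was not confined to the boundary bin. Pairs from the bin 40 kb after the boundary to bins 480 and 800 kb after it stood at 1.39 and 1.54. On the other side, pairs from 40 kb before it to 480 and 800 kb before it stood at 1.38 and 1.46. Pairs from the boundary bin itself to bins 440 and 800 kb after it stood at 1.32 and 1.66.

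**Figure D1:**
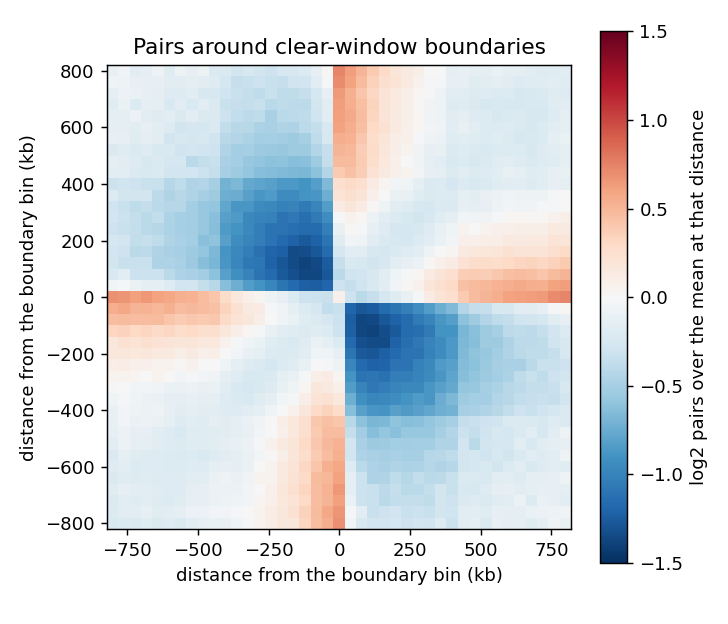
Pairs around the 1479 clear-window boundaries, pooled over the 4 libraries, as log2 of pairs over the chromosome mean at the same distance; both axes give the distance from the boundary bin in kb. The blue corners are pairs crossing the boundary (0.472 of the mean within 400 kb). The red bands hold pairs from the boundary bin itself to bins 440 to 800 kb away (1.47 times the mean). They extend to the neighbouring bins on their own side of the boundary.

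Without correction for the coverage of the boundary bin, its own bands were strongest where it held a promoter. At 351 clear-window boundaries with a marked coding TSS, the boundary bin made 2.08 times the mean number of pairs at 440 to 800 kb, compared with 1.59 times for all 5582 clear-window bins with such a TSS. At the 1128 without one the value was 1.28, compared with 1.03 for all such bins. Boundaries with a CTCF-like match and no marked TSS stood at 1.45, and those with neither at 1.18. The median number of pair ends in the bin itself was 1.75 of the chromosome median at boundaries with a marked TSS and 0.859 at those without. It was 2.08 and 0.986 in all such bins, 0.952 at boundaries with the match and no marked TSS, and 0.808 with neither. The part of coverage in the bands was not tested. In bins 200 kb before a boundary, pairs at this range were 1.13 times the mean away from the boundary and 0.564 times across it.

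The depletion was present in libraries that had no part in choosing the bin. When boundaries were chosen on 3 libraries and the fourth was examined, between 92.1% (TGFB1 held out) and 93.9% (TGFB1+miR-9-LOF held out) had fewer crossing pairs than both bins 400 kb away, compared with 30.5% to 32.5% of all clear-window bins. The exact binomial intervals of these shares spanned 90.6% to 95.04%. The median log2 ratio of the boundary to the mean of the bins 400 kb away in the held-out library lay between -1.13 and -1.08, while that of all bins was between -0.025 and -0.0016. A boundary called from the held-out library alone fell within 1 bin of 72.3% to 73.8% of those chosen on the other 3. Bins within 1 bin of such a call made up 8.43% to 8.92% of all clear-window bins. All libraries shared the cell line, the antibody target and the genome, and crossing pairs were not corrected for coverage here. Traits of coverage can therefore recur in the held-out library, and these shares cannot tell such traits from insulation.

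Promoters of coding genes stood at boundaries more often than at other bins. A coding TSS lay in 689 of 1802 boundary bins (38.2%, exact 95% interval 36.0 to 40.5%), compared with 24.3% of all bins. A marked TSS lay in 384 (21.3%, 19.4 to 23.3%) compared with 10.4%, and an H3K4me3 region in 426 (23.6%, 21.7 to 25.7%) compared with 12.2%. Start sites on both strands, as divergent gene pairs give, lay in 10.04% of boundaries and 4.55% of all bins. The start sites and motifs come from the annotation and the genome sequence, which the rule did not use, but the H3K4me3 regions come from the same pairs as the insulation, and pairs of the boundary bin enter the values of its neighbours. The H3K4me3 share is therefore not independent of the choice. The share of start sites is not fully independent either, as marked start sites lie near these regions. With boundaries chosen on pairs with no end in a region, 17.5% held a region and 34.3% a coding TSS. Neighbouring bins are not independent either, so the intervals are narrow.

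The H3K4me3 comparison depended on how strong a region had to be. With regions of at least 8-fold the share was 16.0% at boundaries and 6.96% in all bins, but with regions of at least 2-fold it was 51.8% at boundaries and 54.1% in all bins. When crossing pairs were divided by the number expected from coverage and distance, 1898 boundaries were found, 37.8% of them with a region and 53.2% with a coding TSS. That set shared 735 bins with the boundaries described here, 40.8% of these and 38.7% of that set.

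The promoter peak was 1 bin wide. Clear-window boundaries held 0.549 coding start sites per bin, while the bins 80 kb away held 0.303 before and 0.267 after, and those 400 kb away held 0.238 and 0.204. All clear-window bins averaged 0.327, so the flanks of boundaries were poorer in genes than the genome while the boundary bin was richer. Marked start sites were at 0.316 in the boundary bin, 0.100 and 0.0913 at 80 kb, and 0.139 over all clear-window bins. A bin with no marked TSS was a boundary in 2.43%, a bin with 1 in 5.66% and a bin with 2 in 9.21%. Of 223 bins with 3 or more, 7 were boundaries (3.14%, exact interval 1.27 to 6.36%). Marked start sites come from the same pairs as the insulation, and pairs of a bin enter the values of its neighbours. Their peak and these rates are therefore not independent of the rule, and the peak of all coding start sites not fully.

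**Figure D2:**
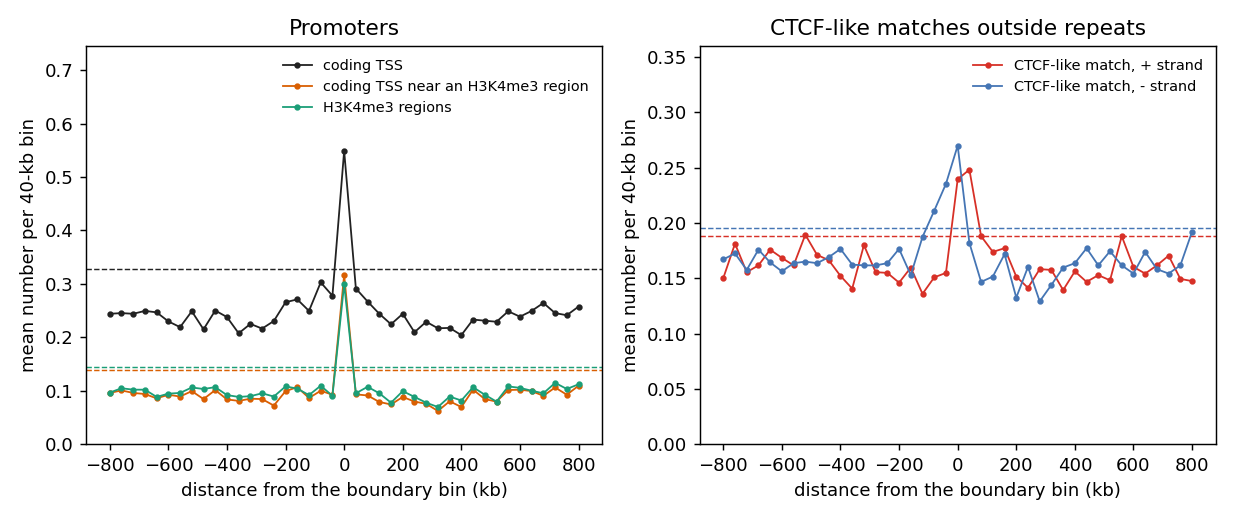
Mean number of coding TSS, marked coding TSS and H3K4me3 regions (left) and of CTCF-like matches outside repeats by strand (right) per 40-kb bin, against the distance from 1479 clear-window boundaries in kb; dashed lines are the means over all clear-window bins. Promoters peak in the boundary bin (0.549 coding TSS against 0.327), but marked TSS and regions come from the same pairs as the insulation. Matches on the minus strand peak at and before the boundary bin, those on the plus strand at and after it.

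RNA genes gave a mixed picture. A tRNA gene lay in 13 boundary bins (0.721%, exact interval 0.385 to 1.23%) and in 0.257% of all bins. Start sites of long non-coding RNAs lay in 14.5% of boundaries (12.9 to 16.3%) and 13.7% of all bins, within the interval. Base composition and cutting sites at boundaries were close to those of all bins: the median GC content was 40.9% and 41.4%, repeats covered 31.6% and 31.0%, and there were 99 and 98 MboI sites per bin. The number of pair ends in the boundary bin had a median of 0.921 of the chromosome median, and the bins of its window 0.906, compared with 1.00 and 1.06 for all bins.

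A CTCF-like core (CCA, any 2 bases, AG, any 2 bases, GGCA) was searched on both strands of GRCm38 (mm10), counting matches outside soft-masked repeats; no CTCF binding was measured here. Such a match lay in 652 boundaries (36.2%, exact interval 34.0 to 38.5%), compared with 29.7% of all bins. Of clear-window bins with no match 2.54% were boundaries, of those with 1 match 3.30%, with 2 matches 4.12% and with 3 or more 5.65% (exact interval 3.97 to 7.78%). The matches nearest the bin centre in 10 named boundaries are printed here, each read 5′ to 3′ on its own strand with the match in capitals and 15 bases on either side, to show what a match looks like. They were picked after their values were seen and do not by themselves show the strand pattern described next.
Foxo1 boundary, plus strand, chr3:52257821-52257863: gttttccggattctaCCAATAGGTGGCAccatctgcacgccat
Bccip and Uros boundary, minus strand, chr7:133704196-133704238: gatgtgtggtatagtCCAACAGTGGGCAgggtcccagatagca
Rabl2 boundary, plus strand, chr15:89584833-89584875: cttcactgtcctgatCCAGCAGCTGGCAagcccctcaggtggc
Ccdc122 and Lacc1 boundary, minus strand, chr14:77008426-77008468: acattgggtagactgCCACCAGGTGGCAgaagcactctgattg
boundary without a coding TSS, plus strand, chr9:100442250-100442292: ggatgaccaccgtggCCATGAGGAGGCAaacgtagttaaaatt
Myc boundary, plus strand, chr15:61983416-61983458: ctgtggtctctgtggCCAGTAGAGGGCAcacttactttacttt
Meis1 boundary, minus strand, chr11:19024632-19024674: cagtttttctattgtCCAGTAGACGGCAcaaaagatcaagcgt
Rpl37 boundary, plus strand, chr15:5086354-5086396: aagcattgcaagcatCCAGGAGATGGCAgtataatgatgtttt
Rpl38 boundary, plus strand, chr11:114672853-114672895: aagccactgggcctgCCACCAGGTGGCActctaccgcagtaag
Rps29 boundary, plus strand, chr12:69127345-69127387: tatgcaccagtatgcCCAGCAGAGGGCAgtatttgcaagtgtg
By the GENCODE vM21 annotation, the matches of the Bccip and Uros boundary and of the Rabl2 boundary lay in introns of Uros and Rabl2, and the other 8 were intergenic. The one beside Myc was 1.95 kb from the Myc start site. Read from the centre of the bin, 4 of the 10 pointed away from it (Rabl2, Ccdc122 and Lacc1, Myc and Rpl38) and 6 pointed towards it.

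The strand of the matches changed across the boundary. In the 120 kb before clear-window boundaries, 653 of 1590 matches were on the plus strand (41.1%, exact interval 38.6 to 43.5%), and in the 120 kb after them 902 of 1612 were (56.0%, 53.5 to 58.4%). Within the boundary bin itself, 37.8% of 370 matches in its first 20 kb and 55.9% of 383 in its last 20 kb were on the plus strand. The plus-strand motif points towards higher coordinates, so matches pointed away from the boundary more often than towards it on both sides. For coding start sites the shares on the plus strand were 52.6% (49.8 to 55.4%) of 1228 before and 50.04% (47.2 to 52.9%) of 1187 after. Within the boundary bin they were 46.98% (41.99 to 52.02%) of 398 in the first 20 kb and 51.2% (46.3 to 56.1%) of 414 in the last, so that the intervals of the 2 sides overlapped in both cases.

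Boundaries were also grouped by whether they held a promoter, a motif or both. Of the clear-window boundaries, 147 held both a marked TSS and a CTCF-like match (9.94%, compared with 4.31% of all clear-window bins), and 204 held the promoter only (13.8% compared with 6.44%). The match stood alone in 412 (27.9% compared with 26.02%), and 716 held neither (48.4% compared with 63.2%). Prominence, the rise in insulation from the boundary to the lower of the 2 peaks within 10 bins of it, had a median of 1.22 in the first class, 1.26 in the second, 1.00 in the third and 0.77 in the last. The median number of pair ends in the bins around was 1.19, 1.19, 0.979 and 0.808 of the chromosome median in these classes, also higher in the promoter classes. Whether coverage had a part in the prominence was not tested.

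Minima that the threshold left out were richer in genes. Among 723 clear-window minima at or above -0.5, 62.1% (58.5 to 65.7%) held a coding TSS, 51.7% an H3K4me3 region and 46.9% a CTCF-like match, compared with 38.1%, 25.8% and 37.8% of the clear-window boundaries. Their windows held 1.55 times the chromosome median of pair ends, compared with 0.974 for boundaries. The 14569 clear-window bins below -0.5 that were no boundary had a coding TSS in 14.8%, a region in 5.26% and windows at 0.691.

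Contacts of boundary promoters showed no common direction along the gene. At 229 clear-window boundaries whose coding start sites shared a strand and were marked, the log2 ratio of pairs going downstream to pairs going upstream within 400 kb had a median of 0.09 and an interquartile range of -0.45 to 0.57, and 52.8% (46.2 to 59.5%) were above 0. In all 3927 such bins 50.2% were.

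The boundaries of largest prominence with a marked coding TSS belonged to genes of varied function. The 12 most prominent are described with the insulation of the 4 libraries in turn.

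The most prominent, at 2.53, was the bin at chr6:89640001-89680000, which holds the start of Txnrd3, a thioredoxin reductase. Its insulation was -1.68, -1.65, -1.58 and -1.41 on 91, 68, 90 and 106 crossing pairs. The bin of Opa1 (chr16:29560001-29600000), a GTPase of mitochondrial inner membrane fusion, had -2.50, -1.77, -1.96 and -2.003 on 31, 37, 41 and 42 pairs. The Control value was the lowest of the 4, and its difference from TGFB1 was 0.73 with a 95% counting interval of 0.69 on either side. The bin of Hdac2 (chr10:36960001-37000000), a histone deacetylase, had -1.77, -1.99, -2.07 and -2.19. Here Control was the highest, and the difference of miR-9-LOF from Control was -0.43, within its 95% counting interval on 72 and 102 pairs.

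Promoters of these 3 boundaries, the most prominent of the 12, are shown as examples. Each bin held a marked TSS and no CTCF-like match outside repeats. The same was true of the bins of Ttc17 and Api5, of Bcl6 and of Trim32, whose promoters are not shown. The 250 bases before the RefSeq start (GRCm38.p6) are given 5′ to 3′ on the strand of the gene, plus in each case, with CG dinucleotides in capitals.
Txnrd3, chr6:89643738-89643987: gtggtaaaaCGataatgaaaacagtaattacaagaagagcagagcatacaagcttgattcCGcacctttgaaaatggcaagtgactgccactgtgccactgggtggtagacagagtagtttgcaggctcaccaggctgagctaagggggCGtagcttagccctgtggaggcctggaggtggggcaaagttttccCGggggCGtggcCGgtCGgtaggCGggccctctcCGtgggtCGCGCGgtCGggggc
Opa1, chr16:29579084-29579333: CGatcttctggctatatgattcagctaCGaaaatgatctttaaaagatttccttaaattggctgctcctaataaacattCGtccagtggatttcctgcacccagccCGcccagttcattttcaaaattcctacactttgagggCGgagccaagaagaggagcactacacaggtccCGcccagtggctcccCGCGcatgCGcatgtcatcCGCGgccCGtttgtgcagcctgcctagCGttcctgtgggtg
Hdac2, chr10:36974294-36974543: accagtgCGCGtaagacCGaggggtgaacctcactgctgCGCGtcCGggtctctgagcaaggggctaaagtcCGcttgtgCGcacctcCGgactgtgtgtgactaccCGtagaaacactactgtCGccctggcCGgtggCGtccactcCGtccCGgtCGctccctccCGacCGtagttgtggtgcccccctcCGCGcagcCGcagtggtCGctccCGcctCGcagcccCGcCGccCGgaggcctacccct
They held 13, 13 and 27 CG dinucleotides, and the median of the 13566 autosomal coding genes whose window could be matched was 12, while that of the 5938 matched genes with a marked start was 18. Windows were matched for fewer than 80% of the 20807 genes, so boundary genes were not compared with others.

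Foxo1, a forkhead transcription factor, had the shallowest boundary of the 12 (chr3:52240001-52280000), between peaks of insulation of 1.94 before it and 1.64 after it. Its pooled value of -0.71 became -2.16 with crossing pairs over those expected from coverage and distance. Its insulation was -0.69, -0.61, -0.55 and -1.02, so that miR-9-LOF was the lowest library, but its difference of -0.33 from Control lay within the counting interval on 109 and 141 pairs. The bin made 645 pairs to the 400 kb after it and 263 to the 400 kb before it. Trim32, a ubiquitin ligase, stood in the bin at chr4:65600001-65640000 with -2.58, -1.94, -2.15 and -2.41. Control was again the lowest library, but its 34 crossing pairs left the difference of 0.64 from TGFB1 within a counting interval of 0.66 on either side.

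Several of these boundaries held the marked start sites of gene pairs on opposite strands, whose annotated 5′ ends overlapped. Bccip, which binds BRCA2, and Uros, an enzyme of heme synthesis, shared the bin at chr7:133680001-133720000 with the unmarked start of the metalloproteinase gene Mmp21. Its insulation was -1.28, -1.45, -1.55 and -1.33. Ccdc122 and Lacc1, a laccase-domain gene of macrophages, shared a bin (chr14:77000001-77040000), with -1.30, -1.25, -1.42 and -1.63. Mrps30, a mitochondrial ribosomal protein, and B430218F22Rik shared another (chr13:118360001-118400000), with -2.40, -2.30, -2.69 and -2.91. In the last pair miR-9-LOF was lowest, but its difference of -0.51 from Control lay within the counting interval on 32 and 48 pairs.

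The remaining promoter boundaries lay at varied depths. The bin of Ttc17 and Api5, an inhibitor of apoptosis (chr2:94400001-94440000), had -2.40, -2.28, -2.48 and -2.45. Acr, the sperm protease acrosin, and Rabl2, a small GTPase, shared a bin (chr15:89560001-89600000) with -2.08, -1.99, -2.20 and -2.13. The start site of Rabl2 was marked and that of Acr was not. Bcl6, a transcriptional repressor, and Gm37419 shared the bin at chr16:23960001-24000000, with -1.41, -1.25, -1.32 and -1.31. Prrc1 stood at -1.57, -0.96, -1.27 and -1.26, with Control 0.61 below TGFB1 and a counting interval of 0.49 on either side.

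The 3 most prominent boundaries without a coding TSS were as deep. The bin at chr15:41080001-41120000 had -1.86, -2.12, -2.06 and -1.72, that at chr9:100440001-100480000 had -1.97, -2.10, -2.30 and -1.89, and that at chr2:107920001-107960000 had -2.64, -2.63, -2.48 and -2.28. None of the 3 held an H3K4me3 region, and 1 of them held a CTCF-like match outside repeats, the one printed above for chromosome 9.

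**Figure D3:**
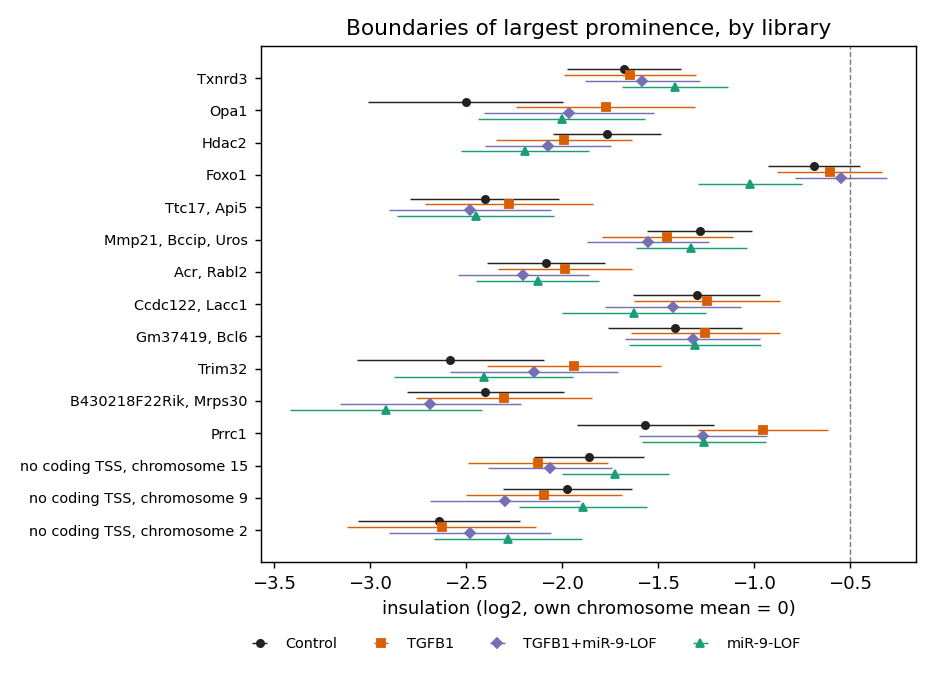
Insulation (log2, chromosome mean of the same library = 0) of the 12 most prominent clear-window boundaries with a marked coding TSS and the 3 most prominent without a coding TSS, by library; bars are 95% counting intervals and the dashed line is the threshold of -0.5. The 4 intervals overlap at each of these boundaries, and Control lies below the other libraries at Opa1 (-2.50), Trim32 (-2.58) and Prrc1 (-1.57), among others.

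Of all coding genes, 1010 (4.85%) had their start site in a boundary bin, and of those with a marked start site 524 of 8001 did (6.55%). Ribosomal protein genes, which are expressed in every cell, gave 9 of 81 autosomal members (11.1%, exact interval 5.21 to 20.1%), among them Rpl37, Rpl38, Rplp1, Rps12, Rps15a, Rps23, Rps29 and Rps9. The deepest was the bin of Rps29 (chr12:69120001-69160000), with -2.62, -2.64, -2.51 and -3.20 on 25, 18, 25 and 16 pairs. Rpl37 (chr15:5080001-5120000) had -2.25, -2.15, -2.10 and -2.31. Rps23 (chr13:90920001-90960000) had -2.01, -1.998, -1.77 and -1.51, with miR-9-LOF the highest library. The bins of Rpl38, Rplp1, Rps12, Rps15a and Rps9 had pooled values between -1.25 (Rps12) and -0.62 (Rps15a). No H3K4me3 region was found within 2 kb of the start sites of Rplp1, Rps23 and Rps29. Ribosomal protein genes have many processed copies, and reads at them can fail the mapping quality filter. Whether this had a part at these start sites was not tested. The bins of Rplp1, Rps23 and Rps29 held 1.67, 1.31 and 1.49 times the chromosome median of pair ends.

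In the lists tied to the treatment, shares were near that of all coding genes or could not be told from it. Of 30 SMAD pathway genes, 2 lay in boundary bins (6.67%, exact interval 0.818 to 22.1%): Smad2, which carries the TGFB1 signal to the nucleus, and Smad9, a SMAD of the BMP branch. The Smad2 bin, whose window was not clear, had -1.46, -1.56, -1.33 and -1.81. Its lowest library was miR-9-LOF, whose difference of -0.35 from Control lay within the counting interval on 52 and 68 pairs. The Smad9 bin (chr3:54720001-54760000), shared with Exosc8 and Alg5, had -0.68, -0.44, -0.49 and -0.55, and the start site of Smad9 was not marked. Its pooled value was -0.55, and -0.498 without Control, outside the threshold. Of 17 AP-1 and immediate early genes 1 did (5.88%, 0.149 to 28.7%), Myc (chr15:61960001-62000000), with -0.91, -0.90, -0.60 and -0.93 on 189, 140, 210 and 177 pairs. Its pooled value of -0.83 became -0.44 with the mean over all autosomes in place of its own chromosome's.

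Of 25 transcription factors of lung mesenchyme 2 lay at boundaries (8%, exact interval 0.984 to 26.03%). Nr2f1 (chr13:78160001-78200000), an orphan nuclear receptor, had -0.87, -1.05, -0.96 and -0.79. Meis1 (chr11:19000001-19040000), a homeobox factor, had -0.89, -1.18, -1.09 and -1.17. Control was the highest library, but the difference of TGFB1 from it, -0.29, lay within a counting interval of 0.31 on either side. Over expected pairs the pooled values of both bins lay above the threshold, at -0.46 for Nr2f1 and -0.43 for Meis1, and with the mean over all autosomes Meis1 was at -0.45. None of 20 early TGFB1 targets, 28 matrix genes of fibroblasts or 16 architecture factors (among them Ctcf and Rad21) had its start site in a boundary bin. Neither did any of 9 genes tied to the study: Zdhhc5, Ncl, Lzts2, Hdac7, Ep300, its negative control Prap1 and the non-coding Mir9 loci. A count of 0 allows a share of up to 16.8%, 12.3%, 20.6% and 33.6% in these lists by the exact interval, so shares near the 4.85% of all genes were not detectable at these sizes.

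Insulation at boundaries was lowest in Control and highest in miR-9-LOF. The median over boundaries was -1.35, -1.27, -1.19 and -1.14, with 5th percentiles between -2.94 and -2.76 and 95th percentiles between -0.59 and -0.50. Over all bins the medians shifted in the same order, from -0.24 to -0.19, -0.15 and -0.14. The depth of the boundary against the bins 400 kb away was nearly level, at -1.19, -1.16, -1.15 and -1.14. Boundaries called from single libraries numbered 1861, 1801, 1776 and 1804, and 74.97% to 78.5% of the pooled boundaries lay within 1 bin of a call in each library. Across clear-window boundaries, insulation in 2 libraries had Pearson's r between 0.825 (Control with miR-9-LOF) and 0.901 (Control with TGFB1), over 1479 bins that were chosen on the pool of these libraries.

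**Figure D4:**
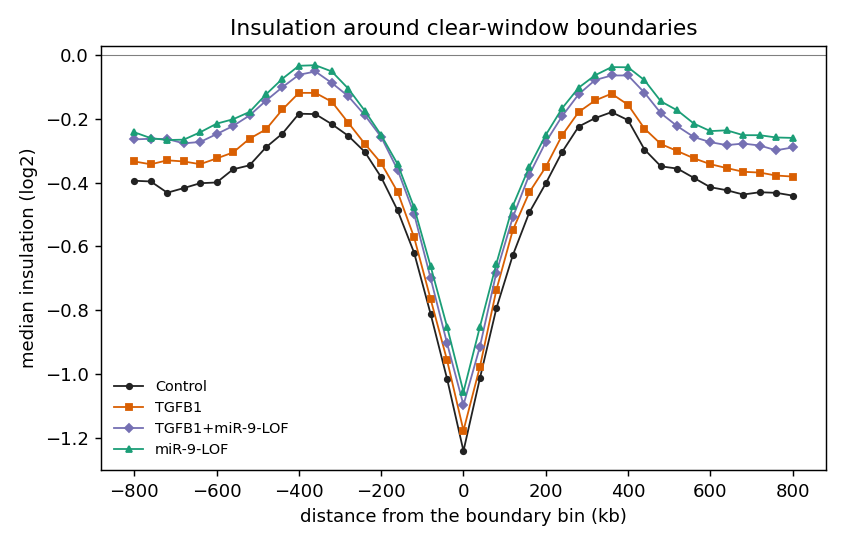
Median insulation (log2, chromosome mean of the same library = 0) against the distance from 1479 clear-window boundaries in kb, 1 line per library. The lines run almost parallel, with Control lowest and miR-9-LOF highest at the boundary (-1.24 and -1.06) and at 400 kb before it (-0.18 and -0.03).

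For TGFB1 minus Control, which asks what TGFB1 changed, the median difference at 1761 boundaries with crossing pairs in both libraries was 0.08, with 5th and 95th percentiles of -0.35 and 0.48, and 63.1% were above 0. Over all bins the median was 0.02. Insulation was higher by at least 0.5 at 79 boundaries (4.49%), compared with 1.7% of all 59195 bins, and lower by at least 0.5 at 32 (1.82%), compared with 0.895%. The median 95% counting interval of a difference reached 0.42 on either side at boundaries and 0.29 over all bins, as boundaries had fewer crossing pairs. The difference passed its counting interval at 7.78% of boundaries and 14.01% of all bins. The median fell to 0.034 when boundaries were chosen without Control and rose to 0.10 when they were chosen without TGFB1.

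Among clear-window boundaries, the largest rises in TGFB1 were at the bin of Ttc5, a cofactor in the stress response (chr14:50760001-50800000), with -2.63 in Control and -1.63 in TGFB1, at chr12:36680001-36720000 with -1.90 and -0.93, and at the bin of Cyp2j13, a cytochrome P450 (chr4:96040001-96080000), with -2.24 and -1.44. They rested on 29 to 59 crossing pairs per library. The largest falls were at chr16:50800001-50840000 with -1.23 and -1.90, at chr6:124360001-124400000 with -0.89 and -1.55, and at chr3:111400001-111440000 with -1.64 and -2.28. None of these 6 bins held an H3K4me3 region. They were picked for their differences and have no replicate. Over expected pairs, the pooled value at chr12:36680001-36720000 was -0.32 and that at chr3:111400001-111440000 was 0.32, so that neither passed the threshold.

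For TGFB1+miR-9-LOF minus TGFB1, which asks what the antagomiR changed under TGFB1, the median at 1759 boundaries was 0.06 and that of all bins 0.03. At boundaries 71 (4.04%) were higher by at least 0.5, compared with 2.35% of all bins, and 33 (1.88%) lower, compared with 0.857%. The difference passed its counting interval at 6.88% of boundaries and 14.9% of all bins. The median was 0.031 with boundaries chosen without TGFB1, 0.0998 without TGFB1+miR-9-LOF and 0.15 with crossing pairs over those expected from coverage and distance. Both this comparison and the previous one use the TGFB1 library. For miR-9-LOF minus Control the median at 1764 boundaries was 0.18 and that of all bins 0.08. Here 321 boundaries (18.2%) were higher by at least 0.5, compared with 13.5% of all bins, and 26 (1.47%) lower, compared with 2.21%. The difference passed its counting interval at 26.8% of boundaries and 44.2% of all bins, whose intervals were narrower. This comparison and TGFB1 minus Control share the Control library.

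The rise in miR-9-LOF was smaller at promoters. At 383 boundaries with a marked TSS the median of miR-9-LOF minus Control was 0.02, and 4.70% were higher by at least 0.5. At 1381 boundaries without one it was 0.23, and 21.9% were. For TGFB1 minus Control the same medians were 0.05 and 0.08, and for TGFB1+miR-9-LOF minus TGFB1 they were -0.01 and 0.09. Split by CTCF-like match instead, the median of miR-9-LOF minus Control was 0.11 at 644 boundaries with a match and 0.23 at 1120 without. Of these, 13.7% and 20.8% were higher by at least 0.5. The splits overlap, as 147 clear-window boundaries held both a marked TSS and a match. They were not separated or made over all bins, so whether a smaller rise is particular to promoters cannot be told. The libraries also differed in enrichment, and its part in these differences was not tested. When only pairs with no end in an H3K4me3 region were counted, the median insulation of the boundaries was -1.18, -1.16, -1.14 and -1.07 in the 4 libraries, and the median differences at the same boundaries became 0.03, 0.02 and 0.10.

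**Figure D5:**
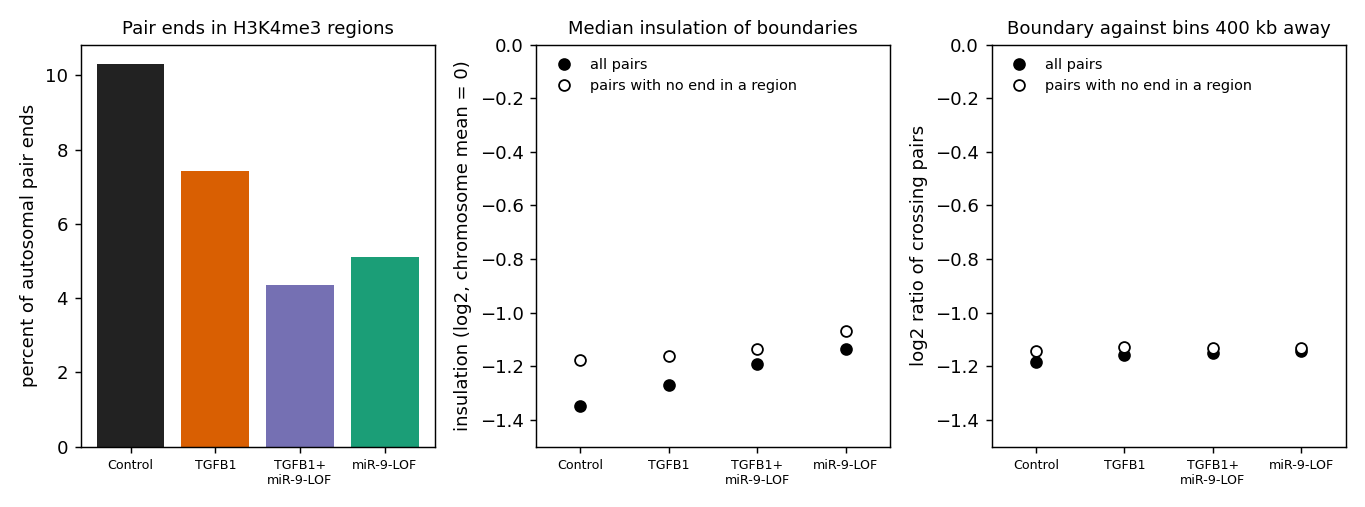
Percent of autosomal pair ends in H3K4me3 regions (left), median insulation of the boundaries (middle) and median log2 ratio of crossing pairs at the boundary to the bins 400 kb away (right) in each library; bars start at 0, filled points are all pairs and open points are pairs with no end in an H3K4me3 region. Insulation runs from -1.35 to -1.14 with all pairs and from -1.18 to -1.07 without region pairs, while the ratio to the bins 400 kb away stays between -1.19 and -1.13.

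The long-range pairs of the boundary bin also differed between libraries, in a different order at the 2 kinds of boundary. At boundaries with a marked TSS they were 2.52, 2.15, 1.81 and 1.84 times the chromosome mean. At boundaries without one the order was nearly the opposite, at 1.22, 1.26, 1.31 and 1.32. All clear-window bins stood at 1.09 in each library. They were not split by marked TSS in single libraries, so these orders cannot be called particular to boundaries. The share of pair ends in H3K4me3 regions was 10.3%, 7.44%, 4.35% and 5.10%, and its part here was not tested.

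H3K4me3 ends at boundaries stood in the same order of libraries as elsewhere. The 426 boundary bins with a region had medians of 11.9, 8.39, 4.88 and 5.73 region ends per 1000000 autosomal ends, and all 7242 bins with a region had 11.2, 7.96, 4.76 and 5.57. The median log2 ratio of TGFB1 to Control was -0.47 at boundaries and -0.48 over all such bins, that of TGFB1+miR-9-LOF to TGFB1 was -0.80 and -0.76, and that of miR-9-LOF to Control was -1.02 and -1.003. Treatment and the enrichment reached in 1 immunoprecipitation cannot be told apart here.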

How the data were processed

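The authors aligned H3K4me3 HiChIP-seq reads to mm10 with HiC-Pro, removed duplicates, assigned reads to MboI fragments and deposited each library's valid pairs: chromosome, position and strand of both ends, with the aligner's mapping quality as a score per end; no HiC-Pro version is given in the sources used here. The deposited mapping quality score and positions were the only columns used. Pairs with a score of at least 30 at both ends were binned at 40 kb on the 19 autosomes and pooled over 4 libraries, 1 per condition, at their own depth (86.6% to 90.8% of 10864558 to 15568047 pairs). Bins with fewer than 10 bins on a side or no crossing pair had no insulation value. H3K4me3 regions came from 1-kb bins of pair ends of libraries thinned to equal depth, with a Poisson false discovery rate of 0.01 and a 4-fold minimum over background (whichever was higher, the mean of the chromosome or that of the 100 kb around). Genes were those of GENCODE vM21, with 1 start per gene; tRNA genes and promoter windows came from RefSeq. Shares have exact (Clopper-Pearson) 95% intervals and differences of insulation have Poisson counting intervals; pairs are not independent of each other, so both cover counting error only. Named boundaries were the 12 clear-window boundaries of largest prominence with a marked coding TSS, the 3 without a coding TSS, the 3 largest rises and the 3 largest falls of TGFB1 minus Control, and those holding a gene of the fixed lists. The boundaries, lists and rules were chosen with earlier results of these data known. Scripts in Python 3.11.15 with numpy 2.4.6 and scipy 1.17.1 were tested on simulated data with planted boundaries and regions. Alternatives in mapping quality, bin size, window, threshold, coverage, scaling, depth, expected pairs, region strength, motif and library left out are given in the closing section. The values of 1 listed gene are not reported here.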

Additional observations from a re-analysis of the deposited data

How the results depend on the processing

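The number of boundaries was 1183 with a threshold of -1 and stayed within 1.5 times of 1802 under every other alternative run (1479 to 2080). The median log2 ratio of crossing pairs at boundaries to the bins 10 bins away was -1.17, and -1.12 and -1.31 with thresholds of -0.25 and -1. The percent with a coding TSS (38.2) was 29.96 with 20-kb bins (14.2 of all such bins), 35.1 with 5 bins on either side, 35.2 with a threshold of -1, 53.2 with crossing pairs over expected, 34.3 from pairs with no end in a region and 55.0 with the neighbouring bins included (45.8 of all bins). The percent with an H3K4me3 region (23.6) was 20.3 with 20-kb bins (6.62 of all such bins), 25.97 and 19.5 with the 2 thresholds and 25.8 with clear windows. It was 37.8 over expected, 17.5 from pairs with no end in a region, and 16.0 and 51.8 with 8-fold and 2-fold regions. The percent with a CTCF-like match (36.2) was 21.4 with 20-kb bins (16.5 of all such bins), 46.3 over expected, 64.5 with repeats included (59.7 of all bins) and 0.111 with a stricter motif holding CpG (0.0789 of all bins).

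The median difference of TGFB1 minus Control (0.08) was 0.025 with boundaries chosen anew from pairs with no end in a region, and that of TGFB1+miR-9-LOF minus TGFB1 (0.06) was 0.018 there, 0.081 with a threshold of -1 and 0.15 over expected. That of miR-9-LOF minus Control (0.18) was 0.21 with 5 bins on either side, 0.15 and 0.24 with the thresholds of -0.25 and -1, 0.16 with clear windows, 0.23 over expected and 0.085 from pairs with no end in a region. Choosing boundaries without 1 library at a time gave 0.034 to 0.10, 0.031 to 0.0998 and 0.14 to 0.22 for the 3 differences, 1787 to 1814 boundaries, 37.0 to 38.0 percent with a coding TSS, 22.9 to 23.9 percent with a region and 35.9 to 36.3 percent with a match. None of these medians changed sign. Among the 35 named boundaries, under alternatives that can change the value of a bin (not the thresholds or clear windows), 65 values moved by more than 0.25 and 1 changed sign, chr3:111400001-111440000, from -1.70 to 0.32 over expected. Also above the threshold of -0.5 were Meis1, Nr2f1 and chr12:36680001-36720000 over expected (-0.43, -0.46 and -0.32), Myc and Meis1 with the mean over all autosomes (-0.44 and -0.45) and Smad9 without Control (-0.498). The alternative from pairs with no end in a region was chosen after seeing the data. No paired analysis was possible because each condition has 1 library and no result comes from a test.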

Other observations

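Over 723 clear-window minima that stayed above the threshold of -0.5, 62.1% of them with a coding TSS, the median insulation stood between -0.16 (miR-9-LOF) and -0.12 (TGFB1), and the median of miR-9-LOF minus Control was -0.03. That difference passed its counting interval at 25.2% of them and at 25.8% of clear-window boundaries, and the difference of TGFB1 minus Control at 13.4% and 7.91%. Their bins made 2.30 times the chromosome mean of pairs to bins 440 to 800 kb away, compared with 1.47 times for clear-window boundaries, and held a median of 1.78 times the chromosome median of pair ends, compared with 0.989.

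Over 14569 clear-window bins below -0.5 that were no boundary, the median of miR-9-LOF minus Control was 0.33 and 28.3% were higher by at least 0.5, compared with 0.16 and 15.1% of clear-window boundaries. For TGFB1 minus Control the medians were 0.071 and 0.075, and 2.53% and 3.11% were higher by at least 0.5. A marked coding TSS lay in 4.71% of these bins and in 23.7% of clear-window boundaries. No difference between these sets was tested.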
